A study of Mus musculus with 4 samples.

Results

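Bone marrow is fed by small arterioles that open into wide, leaky sinusoids, and the endothelial cells that line these vessels pass blood cells between the marrow and the circulation. The cells hold together through VE-cadherin and PECAM-1, grow and survive under VEGF and angiopoietin signals received by VEGFR and Tie receptors, and, in the sinusoids, carry diaphragmed fenestrae and scavenger receptors that clear material from the blood. The 10 genes described here cover those roles: Pecam1, Cdh5 and Emcn at the cell surface and junctions, Kdr and Flt4 as VEGF receptors, Tek and Tie1 as Tie receptors, Eng as a co-receptor for BMP9 and TGF-beta family ligands, Plvap in fenestral diaphragms and Stab2 as the sinusoidal scavenger receptor. They were picked by name, with earlier results of these data known, as 10 of the 55401 genes in the files, and all 10 were among the 18596 genes with a mean of at least 0.1 FPKM (fragments per kilobase of transcript, corrected for sequencing depth) over the 4 libraries.

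RNA was taken from the tibial marrow of 4 male wild-type C57/B6 mice, all fed a high-fat diet (HFD) from 8 weeks of age. The 2 Ob mice received the diet alone and the 2 Ob + Exe mice also ran on a treadmill at moderate intensity for 12 weeks. No lean or chow-fed mice were analysed here, so every level below is a level in obese marrow, and the labels give no transgene and no other treatment. The labels name bone marrow as the tissue but also give mesenchymal stem cells as a cell line and fibroblast as a cell type. The contents were those of whole marrow: 9 neutrophil markers summed to 28110 to 65490 scaled FPKM and 9 erythroid markers to 54560 to 81680, while 8 reticular stroma markers, led by Cxcl12, summed to 142 to 203. Endothelial RNA was present in every library, as read from Cdh5 at 0.644 to 1.34.

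The libraries held 44310505 to 53038186 reads' worth of transcript coverage, and their 10 most abundant genes took 21.6% to 30.6% of all FPKM. FPKM values were summed over the transcripts of each gene and scaled between libraries. Scaled FPKM is corrected for transcript length, so it can be compared between genes. In bulk marrow a lower value can mean fewer endothelial cells or less RNA in each of them, and these cannot be told apart. Several of the genes are also transcribed outside endothelium, Pecam1 in platelets and leukocytes and Eng, Tek, Tie1 and Emcn in haematopoietic stem cells.

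All 10 genes had a negative log2 fold change in Ob + Exe against Ob, although the untransformed mean of Stab2 was 1.49% higher in Ob + Exe, with a median of -0.50 against -0.02 over all genes tested. Of all genes tested, 52.1% had a negative log2 fold change. For 8 of the 10, neither exercised mouse reached the lower of the Ob mice. That order was held by 18.7% of all genes tested, and the reverse, both exercised mice above both Ob mice, by 2610 of the 18596. Among the 10, Tie1 and Stab2 were the exceptions, joined by Tek after quantile scaling. In a comparison added after the data were seen, 8 of the 10 were below both Ob mice in Ob + Exe replicate 1 taken alone (38.8% of all genes) and all 10 were so in Ob + Exe replicate 2 taken alone (38.0%). Plvap was the only one of the 10 to fall past the thresholds used (a limma p under 0.05 before adjustment, with at least 1 unit of log2 change), where 2.73% of all genes were called lower and 3.71% in either direction. No gene in the genome passed a Benjamini-Hochberg adjusted p of 0.05 in the main limma fit (0 of 18596, against 933 at an unadjusted p under 0.05), and the smallest adjusted p of any gene was 0.768. Those of the 10 genes ran from 0.960 to 0.988. Each group held 2 mice, so an exact two-sided permutation test of a single gene cannot go below 0.333. The limma p-values rest on the spread within the groups of these 4 libraries, drawn in part from other genes of similar level. They do not measure spread beyond these 4 libraries.

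**Figure D1:**
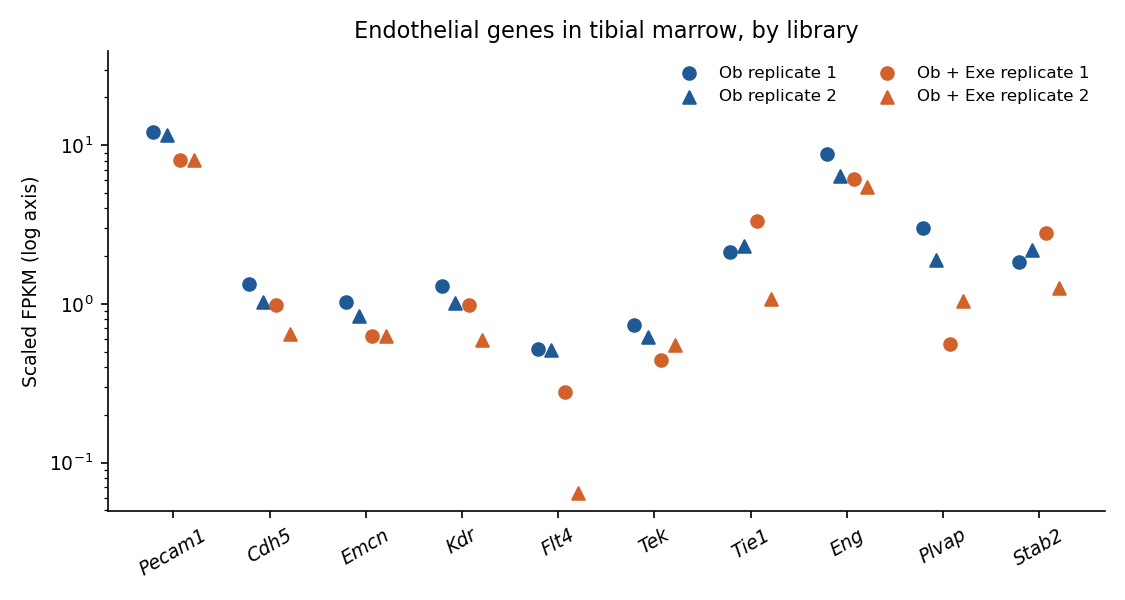
Scaled FPKM (log axis) of the 10 endothelial genes in each library, with circles for replicate 1 and triangles for replicate 2 of the Ob (blue) and Ob + Exe (orange) mice. The orange points lie below the blue ones for 8 genes (7 after quantile scaling), while for Tie1 and Stab2 Ob + Exe replicate 1 lies above both Ob libraries and Ob + Exe replicate 2 below them.

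Promoter sequence is shown first for 4 of the genes. Kdr and Flt4, the pair of VEGF receptors, had lower values in both Ob + Exe libraries, whereas Tie1 and Stab2 had their highest and lowest values in the 2 Ob + Exe libraries. The windows run from 250 bases before to 50 bases after the RefSeq transcription start on GRCm38.p6 and are written 5′ to 3′ on the strand of the gene. That start differs from the start of the main transcript measured here, most for Flt4 and Tie1 and less so for Stab2. The main Flt4 transcript is annotated from 49609263, which lies before its whole window. The main Tie1 transcript is annotated from 118490061 on the minus strand, so most of its window lies within that transcript's span. The main Stab2 transcript is annotated from 87008025 on the minus strand, so more than the last 50 bases of its window lie within that transcript's span. Capitals mark GGAAG, a form of the site bound by ETS factors, or its complement CTTCC. They also mark AGATAA, a form of the GATA site, or its complement TTATCT. Only these exact letters were searched, and other forms of either site are not marked.
Kdr, chr5:75978406-75978705, minus strand: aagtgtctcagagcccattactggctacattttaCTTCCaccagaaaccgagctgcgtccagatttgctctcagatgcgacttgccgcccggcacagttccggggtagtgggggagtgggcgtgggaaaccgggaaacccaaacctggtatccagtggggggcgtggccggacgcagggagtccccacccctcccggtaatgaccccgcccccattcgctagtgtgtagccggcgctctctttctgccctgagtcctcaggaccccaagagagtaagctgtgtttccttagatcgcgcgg
Flt4, chr11:49609429-49609728, plus strand: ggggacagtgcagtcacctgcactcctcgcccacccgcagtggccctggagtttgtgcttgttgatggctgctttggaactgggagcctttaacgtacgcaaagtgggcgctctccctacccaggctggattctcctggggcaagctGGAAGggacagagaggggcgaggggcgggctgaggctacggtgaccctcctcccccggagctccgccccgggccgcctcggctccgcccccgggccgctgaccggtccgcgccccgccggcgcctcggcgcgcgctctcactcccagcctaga
Tie1, chr4:118489800-118490099, minus strand: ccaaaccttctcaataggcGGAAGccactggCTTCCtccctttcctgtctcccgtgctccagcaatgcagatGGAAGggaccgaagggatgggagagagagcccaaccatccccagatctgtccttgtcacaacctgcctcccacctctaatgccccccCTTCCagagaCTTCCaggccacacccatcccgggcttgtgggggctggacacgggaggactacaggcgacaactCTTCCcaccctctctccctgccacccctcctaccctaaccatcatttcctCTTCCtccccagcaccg
Stab2, chr10:87007893-87008192, minus strand: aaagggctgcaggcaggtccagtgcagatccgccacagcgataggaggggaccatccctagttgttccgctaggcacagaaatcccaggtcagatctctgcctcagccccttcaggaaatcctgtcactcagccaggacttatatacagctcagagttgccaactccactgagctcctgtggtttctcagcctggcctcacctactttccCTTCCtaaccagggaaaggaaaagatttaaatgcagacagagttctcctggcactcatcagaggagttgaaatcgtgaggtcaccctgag

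The Tie1 window carried 7 ETS cores of the form GGAAG on the 2 strands, and Kdr, Flt4 and Stab2 each carried 1. RefSeq windows were matched for 7 of the 10 genes. Emcn and Eng carried 2 cores of this form each and Tek carried none of this form, so 6 of the 7 windows held it. It is a short motif, present in 71.4% of the 32851 promoter windows of the same length. The exact GATA form AGATAA or its complement was found in 1 of the 7 windows, that of Tek, and in 11.2% of all windows. The GC content of the windows ran from 41.0% in Emcn to 70.3% in Flt4, with a median of 52.7% over all windows. The pair with opposite Ob + Exe replicates thus had the most cores of this form (Tie1) and 1 core (Stab2), and a match is a description of letters, not of binding.

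Pecam1 (ENSMUSG00000020717.19, chr11:106654217-106750628, minus strand) encodes PECAM-1, the adhesion molecule CD31. Its level was 12.1 and 11.5 scaled FPKM in Ob marrow but 8.09 and 8.06 in Ob + Exe marrow. The groups did not overlap and the replicates of each group nearly coincided, with a ratio between them of 1.05 in Ob. Ob marrow averaged 11.8 ± 0.42 (SD, n = 2) and Ob + Exe marrow 8.08 ± 0.0192, which was 31.8% lower. Its log2 fold change was -0.55 with a 95% interval of -1.11 to 0.02 and passed neither threshold (limma, Benjamini-Hochberg adjusted p = 0.960).

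Cdh5 (ENSMUSG00000031871.9, chr8:104101625-104144511, plus strand) encodes VE-cadherin, the adherens junction protein that defines endothelium. It measured 1.34 and 1.03 scaled FPKM in Ob against 0.983 and 0.644 in Ob + Exe. The groups were separate, but by less than the spread within either: the lower Ob and the higher Ob + Exe library were close. The Ob + Exe mean was 31.3% lower (0.814 ± 0.24 against 1.18 ± 0.223, SD, n = 2 each), with a log2 fold change of -0.51 and an interval of -1.73 to 0.71.

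Emcn (ENSMUSG00000054690.17, chr3:137341067-137432185, plus strand) encodes endomucin, a sialomucin of sinusoidal and venous endothelium. It was at 1.02 and 0.845 scaled FPKM in Ob against 0.628 and 0.63 in Ob + Exe. Both exercised mice gave nearly the same value, below both Ob mice. The mean was 32.6% lower in Ob + Exe, from 90 to 180 reads' worth of coverage per library, and the interval of the log2 fold change was -1.72 to 0.73.

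Kdr (ENSMUSG00000062960.10, chr5:75932827-75978458, minus strand) encodes VEGFR2, the main signalling receptor for VEGF-A. Its values of 1.30 and 1.01 scaled FPKM in Ob against 0.99 and 0.593 in Ob + Exe followed those of Cdh5 library by library. The groups did not overlap, and the mean was 31.5% lower in Ob + Exe. Its log2 fold change, -0.52, had a standard error of 0.507 and did not pass the test.

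Flt4 (ENSMUSG00000020357.3, chr11:49609263-49652739, plus strand) encodes VEGFR3, which is carried by marrow sinusoids as well as by lymphatic vessels. The Ob libraries agreed closely at 0.52 and 0.512 scaled FPKM. The Ob + Exe libraries lay at 0.279 and 0.0644, the second resting on 22 reads' worth of coverage against 102 in the first and 218 and 213 in Ob. All Ob + Exe values were below all Ob values, and the means differed 3.01-fold, 0.516 ± 0.00556 in Ob and 0.171 ± 0.151 in Ob + Exe (SD, n = 2 each). On the log2(FPKM + 0.1) scale of the test, which understates the change of low genes, the difference was -1.30 with an interval of -3.12 to 0.51, and it did not pass (limma, Benjamini-Hochberg adjusted p = 0.960).

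Tek (ENSMUSG00000006386.15, chr4:94739289-94874976, plus strand) encodes TIE2, the angiopoietin receptor. It measured 0.733 and 0.618 scaled FPKM in Ob against 0.442 and 0.551 in Ob + Exe. The groups were separate, though not after quantile scaling (Ob 0.748 and 0.579, Ob + Exe 0.458 and 0.591), and the mean was 26.5% lower in Ob + Exe with a log2 fold change of -0.38 (interval -1.72 to 0.96).

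Tie1 (ENSMUSG00000033191.14, chr4:118471191-118490061, minus strand) encodes the partner of TIE2 that binds no angiopoietin by itself. It was at 2.11 and 2.31 scaled FPKM in Ob against 3.33 and 1.07 in Ob + Exe. The Ob + Exe libraries were thus the highest and the lowest of the 4, differing 3.10-fold, and the group means were equal within 0.563% (2.21 ± 0.144 and 2.20 ± 1.59, SD, n = 2 each). The log2 fold change of -0.20 came from averaging logarithms, with an interval of -1.64 to 1.23.

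Eng (ENSMUSG00000026814.16, chr2:32646595-32682669, plus strand) encodes endoglin. After Pecam1 it was the most abundant of the 10, at 8.77 and 6.36 scaled FPKM in Ob against 6.09 and 5.49 in Ob + Exe. The groups were separate, although Ob replicate 2 was nearer to the Ob + Exe libraries than to Ob replicate 1. The mean was 23.5% lower in Ob + Exe, with a log2 fold change of -0.36 and an interval of -1.08 to 0.35. It was -0.14 without Ob replicate 1 and -0.59 without Ob replicate 2. Of its 4048 exonic bases, 61 overlap Fpgs, which is read from the other strand. Fpgs was at 8.70, 9.995, 6.11 and 3.76 scaled FPKM in Ob replicates 1 and 2 and Ob + Exe replicates 1 and 2.

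Plvap (ENSMUSG00000034845.6, chr8:71497765-71511752, minus strand) encodes PLVAP, the protein from which the diaphragms of endothelial fenestrae are built. It measured 3.01 and 1.90 scaled FPKM in Ob against 0.555 and 1.04 in Ob + Exe, from 407, 251, 64 and 114 reads' worth of coverage. The lower Ob library was well above the higher Ob + Exe library, and the difference between the means, 2.46 ± 0.784 against 0.80 ± 0.346 (SD, n = 2 each), was 3.07-fold. The log2 fold change of -1.53 (standard error 0.507, interval -2.78 to -0.27) gave a limma p of 0.0250. The Benjamini-Hochberg adjusted p was 0.960, and Plvap stood 463rd in order of p among the genes tested. A fit without 1 library leaves 1 mouse in that group, which is then assumed to vary like the 2 mice of the other group, so calls can be lost with no change in the fold. In these fits the log2 fold change of Plvap was -1.21 without Ob replicate 1, -1.85 without Ob replicate 2, -1.13 without Ob + Exe replicate 1 and -1.93 without Ob + Exe replicate 2, and only the last passed. With all 4 libraries the call was lost with a pseudocount of 1 in place of 0.1 and with no filter on low values.

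Stab2 (ENSMUSG00000035459.18, chr10:86841198-87008025, minus strand) encodes stabilin-2, which takes up hyaluronan and other ligands in sinusoids. Its levels were 1.84 and 2.17 scaled FPKM in Ob against 2.81 and 1.26 in Ob + Exe. As for Tie1, Ob + Exe replicate 1 was the highest library and Ob + Exe replicate 2 the lowest, 2.23-fold apart, so the groups overlapped. The means were 2.01 ± 0.239 in Ob and 2.03 ± 1.10 in Ob + Exe (SD, n = 2 each). The mean of logarithms went the other way, with a log2 fold change of -0.08 and an interval of -1.29 to 1.14. The sign depended on single libraries: without Ob + Exe replicate 2 it was 0.47 for Stab2 and 0.57 for Tie1, and without Ob replicate 2 it was 0.04 for Stab2.

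**Figure D2:**
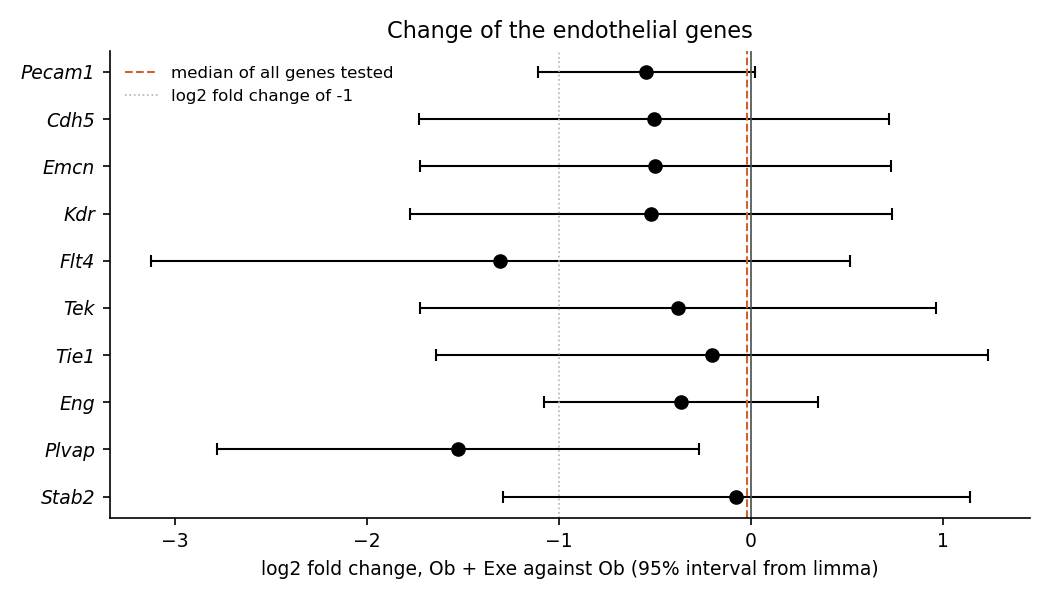
Log2 fold change of each gene in Ob + Exe against Ob (points) with its 95% interval from limma (bars). All 10 points lie below 0 and left of the median of all genes tested, and the interval of Plvap alone excludes 0.

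Ordered by mean level over the 4 libraries, the genes ran from Pecam1 (9.96 scaled FPKM) and Eng (6.68) through Tie1 (2.21), Stab2 (2.02), Plvap (1.63), Cdh5 (0.999), Kdr (0.974), Emcn (0.781) and Tek (0.586) to Flt4 (0.344). Pecam1 was above Eng, and Eng above Tie1, in each of the 4 libraries, as were Emcn above Tek and Tek above Flt4. The neighbours between Tie1 and Emcn exchanged places in at least 1 library, so their order was not separated from the spread. The sum over the 10 genes was 32.8 and 28.3 scaled FPKM in Ob against 24.2 and 19.4 in Ob + Exe, a difference of means of -8.74 (28.6% lower in Ob + Exe) beside a pooled SD of 3.28. Pecam1 and Eng made up 58.6% to 69.8% of that sum. Without them the sum was 11.9 and 10.4 in Ob against 10.01 and 5.86 in Ob + Exe, which was 28.8% lower.

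Levels relative to Cdh5 in the same library do not depend on the scaling between libraries. Kdr kept a ratio to Cdh5 close to 1 in every library, 0.969 and 0.985 in Ob against 1.01 and 0.921 in Ob + Exe. Pecam1, the most abundant, had ratios of 9.04 and 11.2 in Ob against 8.23 and 12.5 in Ob + Exe, so that the Ob values lay inside the Ob + Exe range. The same was true of Emcn (0.639 to 0.978 in Ob + Exe), Tek (0.45 to 0.855) and, with its lower bound tied, Eng (6.20 to 8.52). Plvap and Flt4 were lower relative to Cdh5 in both exercised mice: Plvap from 2.24 and 1.85 in Ob to 0.565 and 1.62 in Ob + Exe, and Flt4 from 0.388 and 0.499 to 0.283 and 0.10. The ratios of Tie1 (1.57 and 2.25 in Ob, 3.38 and 1.66 in Ob + Exe) and Stab2 (1.37 and 2.12, 2.86 and 1.95) overlapped between groups. These ratios are a description, and no test was made of them.

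**Figure D3:**
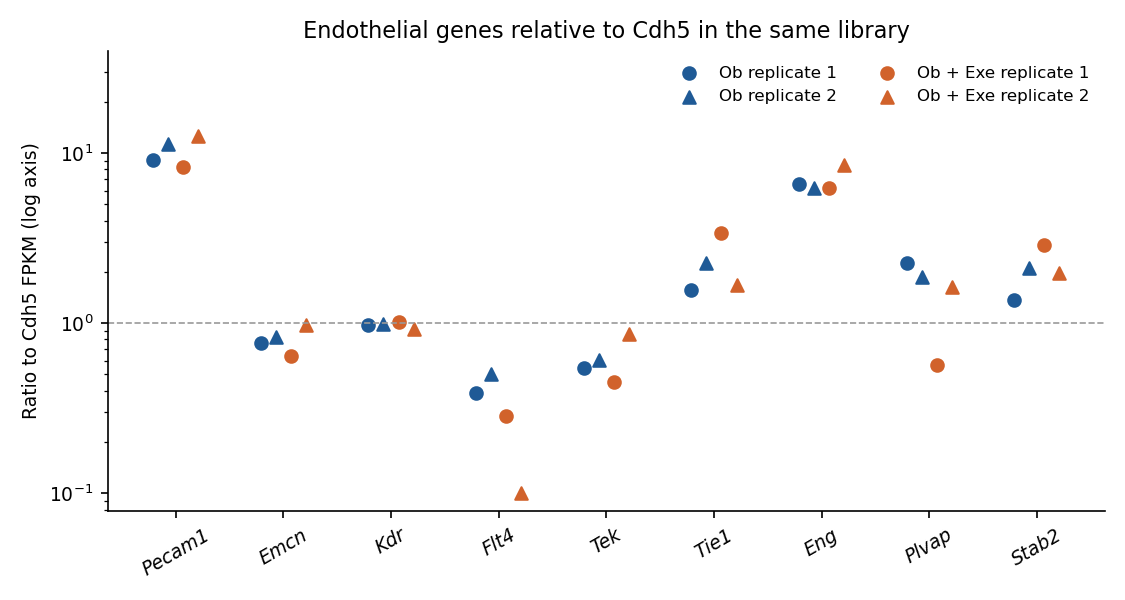
Ratio of the scaled FPKM of each gene to that of Cdh5 in the same library (log axis), with symbols for the 4 libraries and a dashed line at 1. Kdr sits near 1 in all libraries, while the Ob + Exe points of Plvap and Flt4 lie below both Ob points.

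The files divide each gene between its annotated transcripts. The 10 genes had 40 transcripts, 24 of them protein coding. Cdh5, Kdr, Flt4, Emcn and Tek came almost wholly from 1 coding transcript each, Plvap has a single transcript, and 95.01% to 100% of Stab2 lay on its 69-exon transcript of 8228 bases. Pecam1 was shared between coding transcripts that differ in exon number. Its 16-exon form ENSMUST00000106796.8 was at 3.87 and 2.37 scaled FPKM in Ob against 1.03 and 1.02 in Ob + Exe, lower in both exercised mice. Its 15-exon form ENSMUST00000080853.10 was at 3.08 and 2.22 in Ob against 4.23 and 2.61 in Ob + Exe, and its 14-exon form ENSMUST00000103069.9 at 3.98 and 5.44 against 1.77 and 3.70.

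In Eng the split between forms of 3422 and 3403 bases differed most in 1 library. ENSMUST00000009705.13 held 87.0% and 67.6% of the gene in Ob, 100% in Ob + Exe replicate 1 and 33.3% in Ob + Exe replicate 2, where ENSMUST00000167841.7 held 61.0%. The high Tie1 value of Ob + Exe replicate 1 was likewise divided. The 23-exon transcript ENSMUST00000047421.5 was at 2.09, 2.26, 1.87 and 1.07 in Ob replicates 1 and 2 and Ob + Exe replicates 1 and 2, so on that transcript both exercised mice were below both Ob mice. A further 1.454 scaled FPKM, 43.7% of the gene in Ob + Exe replicate 1, was assigned to the 22-exon ENSMUST00000184261.7, which held at most 2.42% in any other library. Such shares are estimates by the assembler from reads that overlapping transcripts have in common, and they carry no error in the files.

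**Figure D4:**
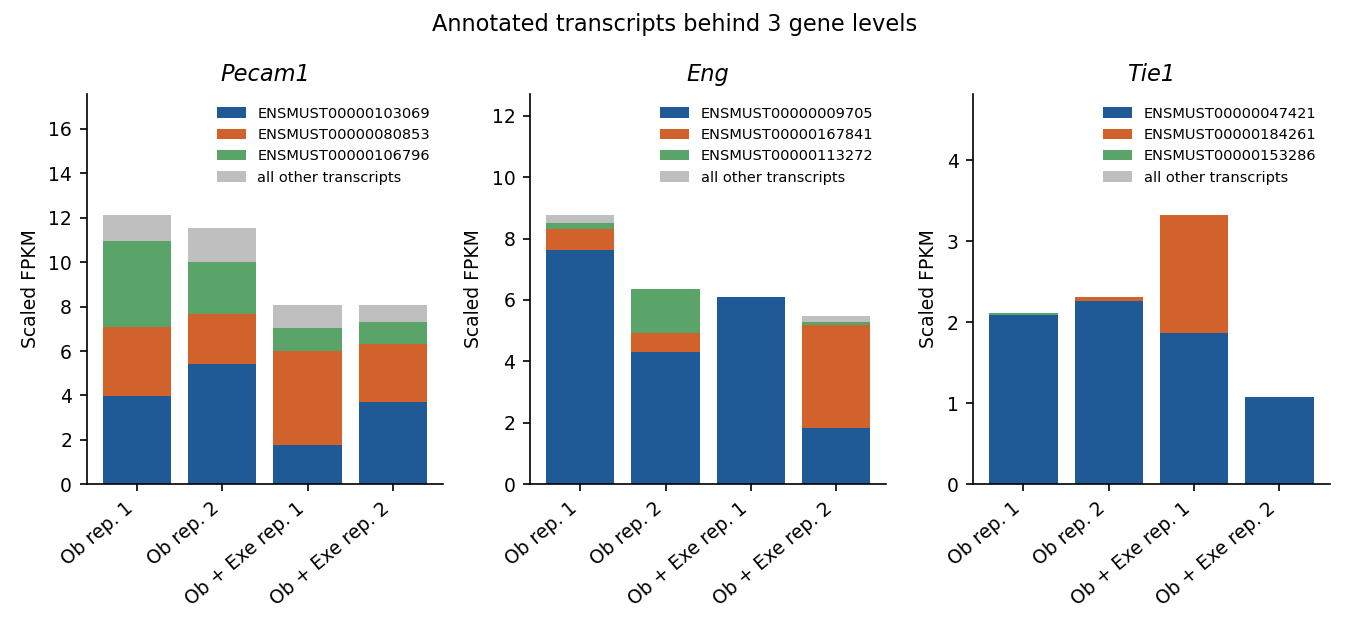
Scaled FPKM of the 3 leading transcripts and of all others for Pecam1, Eng and Tie1 in each library, stacked to the gene's level. The second Tie1 transcript appears almost wholly in Ob + Exe replicate 1, and Eng in Ob + Exe replicate 2 is mostly on its second transcript.

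No list of signalling partners had a call in the direction of its receptors. Of 8 VEGF ligands and other VEGF receptors tested, 5 had lower and 3 higher mean log2 values in Ob + Exe, and none was called (median log2 fold change -0.21). Vegfa, the ligand of VEGFR2, was at 8.24 and 7.62 scaled FPKM in Ob against 13.1 and 9.66 in Ob + Exe. It was higher in both exercised mice, opposite to Kdr, with a log2 fold change of 0.50 that did not pass the test. Nrp1, a VEGF co-receptor, also lay higher in both, at 2.64 and 1.83 against 3.91 and 2.98. Nrp2 (1.01 and 1.10 against 0.739 and 0.849) and Pgf (0.251 and 0.491 against 0 and 0.0782) lay lower in both, like Kdr. Of the 8, 2 were thus below in both exercised mice (18.7% of all genes tested). Another 2 were above in both, an order held by 2610 of the 18596 genes tested. Vegfb overlapped, at 10.3 and 13.7 against 13.9 and 6.10.

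Among 7 angiopoietin ligands and Tie partners, 4 were lower and 3 higher, and none was called (median -0.07). Angpt1, which activates TIE2, was at 5.30 and 5.21 scaled FPKM in Ob against 4.04 and 2.998 in Ob + Exe, below in both exercised mice like Tek. Its log2 fold change of -0.58 did not pass the test. Angpt1 was the only 1 of the 7 below in both exercised mice, an order held by 18.7% of all genes tested. Angptl1 (0.229 and 0.362 against 0.533 and 0.513) and Svep1 (0.0584 and 0.109 against 0.28 and 0.329) were above in both. That reverse order was held by 2610 of the 18596 genes tested. Dok2, an adaptor that binds TIE2, overlapped at 10.6 and 11.8 against 12.5 and 9.20. Of 13 endoglin ligands, receptors and Smads, 11 were tested, with 8 lower and 3 higher, and none was called (median -0.06). Gdf2 and Bmp10, the circulating ligands BMP9 and BMP10, were listed at 0 in all 4 libraries. Tgfb1 was at 64.7 and 53.0 scaled FPKM in Ob against 35.5 and 39.0 in Ob + Exe. The groups were separate, and its log2 fold change of -0.65 had a limma p of 0.0220 without reaching the fold threshold. Acvrl1, the type I receptor ALK1, was at 11.5, 10.5, 7.37 and 13.6 in Ob replicates 1 and 2 and Ob + Exe replicates 1 and 2, and Id1, a target gene of that pathway, at 10.1, 13.4, 11.8 and 10.6, and both overlapped. Id3, also on this list, was at 11.3 and 13.2 in Ob against 6.51 and 6.975 in Ob + Exe. Its groups were separate, and its log2 fold change of -0.85 had a limma p of 0.0138 without reaching the fold threshold. Of the 11 tested, 2 were below in both exercised mice (18.7% of all genes tested) and 0 were above in both.

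Partners at the junction were also mixed, with 8 of 12 lower, 4 higher and none called (median -0.17). Ctnnb1, beta-catenin, which binds VE-cadherin and is present in most cells, was at 66.4 and 67.6 scaled FPKM in Ob against 63.9 and 87.25 in Ob + Exe. Ctnna1 (19.8 to 22.5 over the 4 libraries) and Icam2 (10.6 to 13.8) overlapped between groups. Of 12 transcription factors used by endothelium, 11 were tested, with 4 lower, 7 higher and none called (median 0.07). The 3 most abundant, Lyl1 (60.7 to 102), Tal1 (54.6 to 82.1) and Hhex (18.5 to 31.9), are also factors of blood cells. Tal1 and Hhex lay higher in both exercised mice.

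Of 13 other sinusoidal genes, 10 were lower and 3 higher (median -0.26), and the only call was in the opposite direction to Plvap. Both exercised mice lay below both Ob mice for 4 of the 13, an order held by 18.7% of all genes tested. These were Stab1 (log2 fold change -0.95), Sele (-0.79), Lyve1 (-0.53) and Mrc1 (-0.26), none called. Both lay above for 3, namely Cav1, Fabp4 and Vcam1. Cav1, the caveolin of endothelial and fat cells, was at 0.473 and 0.432 scaled FPKM in Ob against 1.12 and 1.30 in Ob + Exe (log2 fold change 1.25, limma, Benjamini-Hochberg adjusted p = 0.960). The call was lost on leaving out any of the 4 libraries, which leaves 1 mouse in that group, and also without scaling, with a pseudocount of 1, with no filter and in both replicate blocks, with log2 fold changes of 0.61 to 1.35. Fabp4, a fatty acid carrier of capillaries and adipocytes, was at 59.5 and 57.5 against 105 and 77.7, higher in both exercised mice but under the fold threshold (log2 fold change 0.62). Cd36 overlapped, at 47.2 and 42.8 against 26.1 and 55.9. Vcam1, which is also on the reticular stroma and macrophage lists, lay higher in both exercised mice. It was at 35.98 and 35.6 against 40.7 and 38.2, and did not pass the test.

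Of 14 other arteriolar genes, 9 were lower and 5 higher (median -0.20). Ly6c1, a surface antigen of arterioles and of some leukocytes, was called lower. It was at 2.75 and 2.31 scaled FPKM in Ob against 0.16 and 0.979 in Ob + Exe, with a log2 fold change of -2.31 (standard error 0.752, limma, Benjamini-Hochberg adjusted p = 0.960), and it has a near-identical neighbour, Ly6c2, so the division of reads is uncertain. With 1 library left out it was -1.28 without Ob + Exe replicate 1 and -3.33 without Ob + Exe replicate 2, both called, and -2.18 and -2.43 with an Ob group of 1, not called. The call was also lost with no filter on low values. Cxcl12 (93.1 and 143 against 89.3 and 141), Ly6a (22.4 and 17.8 against 28.3 and 22.7) and Bmx (11.8 and 12.0 against 10.8 and 17.7) did not pass the test. Both exercised mice lay below both Ob mice for 2 of the 14 (18.7% of all genes tested). These were Ly6c1 and Sema3g (0.506 and 0.311 against 0.154 and 0.241). Both lay above for 3, an order held by 2610 of the 18596 genes tested. These were Ly6a, Efnb2 (0.33 and 0.283 against 0.334 and 0.471) and Notch4 (0.361 and 0.2435 against 1.99 and 0.503). Sema3g, Efnb2 and Notch4 were not called. Over the 7 lists of partners, 2 of 76 genes tested were thus called (2.63%), against 3.71% of all genes.

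Several marker lists of other marrow cells also had lower sums in the Ob + Exe libraries, and their part in the endothelial values was not tested. The sum of 9 megakaryocyte and platelet markers was 502 and 372 scaled FPKM in Ob against 417 and 151 in Ob + Exe. Like Tie1 and Stab2 it was lowest in Ob + Exe replicate 2, and unlike them it was not highest in Ob + Exe replicate 1. All 9 were lower on average (median log2 fold change -0.78), and Gp1ba and Treml1 were called lower. With 1 library left out, Gp1ba was at -2.76 when Ob + Exe replicate 1 was dropped and at -1.23 when replicate 2 of that group was, both called, and stayed at -1.93 and -2.07, not called, with an Ob group of 1. Treml1 was at -1.56 (called) and -0.53 (not called) in the same fits and stayed at -1.003 and -1.09, not called, with an Ob group of 1. Pf4 was at 155, 113, 150 and 51.0 and Itga2b at 33.9, 50.2, 50.2 and 15.1 in Ob replicates 1 and 2 and Ob + Exe replicates 1 and 2.

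The 9 tested stem and progenitor markers summed with the untested one to 33.7 and 27.8 scaled FPKM in Ob against 27.8 and 19.4 in Ob + Exe, with 8 lower, 1 higher and none called (median -0.56). Cd34, which endothelium also carries, was at 8.06, 5.49, 7.24 and 3.23 in Ob replicates 1 and 2 and Ob + Exe replicates 1 and 2. The 5 lymphatic markers summed to 7.46 and 6.01 in Ob against 4.46 and 4.37, with 3 of 4 tested genes lower and none called (median -0.35). Most of each sum was Mmrn1 alone, at 6.34 and 4.51 in Ob against 3.83 and 2.23 in Ob + Exe. The sum is therefore mainly a reading of that gene. Prox1, the factor that defines lymphatic endothelium, was at 0.0224 scaled FPKM in Ob replicate 1 and listed at 0 in the other 3 libraries. Lyve1, shared by lymphatic vessels, sinusoids and macrophages, was at 0.916 and 0.965 in Ob against 0.63 and 0.612 in Ob + Exe. Pericyte and smooth muscle markers, the cells that wrap vessels, went the other way in 1 mouse, with sums of 7.20 and 6.87 in Ob against 6.76 and 9.78 in Ob + Exe (5 of 9 tested, 2 lower, 3 higher, none called).

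Reticular stroma markers, from the cells that adjoin the sinusoids, overlapped at 142 and 199 scaled FPKM in Ob against 144 and 203 in Ob + Exe (3 lower, 5 higher, none called). Osteoblast markers summed to 24.6 and 32.9 in Ob against 20.0 and 22.8 in Ob + Exe, with 7 of 8 tested lower and Bglap2 and Col1a1 called lower. With 1 library left out, Bglap2 ranged between -4.38 and -1.35 and Col1a1 between -1.32 and -0.72, and only without Ob + Exe replicate 2 was either called. Bglap2 has near-identical copies, so its reads are uncertain. The sums of the macrophage list (123 to 145; 7 of 9 lower, none called) overlapped between the groups. B cell markers were lower in both exercised mice, at 186 and 196 against 156 and 122, and 1 of their 7, Cd79a, was called lower, with log2 fold changes of -1.10 to -0.99 when 1 library was left out. Neutrophil markers were higher in 8 of 9 cases (median 0.31), erythroid markers lower in 6 of 9 (median -0.13), and none of either list was called. Skeletal muscle markers were 12.9 and 12.3 in Ob + Exe against 9.36 and 5.54 in Ob, with 4 of 4 tested genes higher and Acta1 called higher, with a log2 fold change of 2.19 without Ob replicate 1 (called), 0.91 without Ob replicate 2, and 1.64 and 1.47 with an Ob + Exe group of 1 (not called). Relative to the Ob mean, the 10 endothelial genes together stood at 0.792 and 0.636 in Ob + Exe replicates 1 and 2. B cell markers were nearly the same, at 0.815 and 0.637, and osteoblast markers were at 0.697 and 0.794. Megakaryocyte markers were at 0.955 and 0.345, progenitor markers at 0.905 and 0.632 and the lymphatic list, mainly Mmrn1, at 0.663 and 0.649. Pericyte markers were at 0.961 and 1.39, reticular stroma at 0.846 and 1.19 and erythroid markers at 0.743 and 1.11. Macrophage markers were at 1.04 and 0.899, neutrophil markers at 0.947 and 1.695 and skeletal muscle markers at 1.735 and 1.65.

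**Figure D5:**
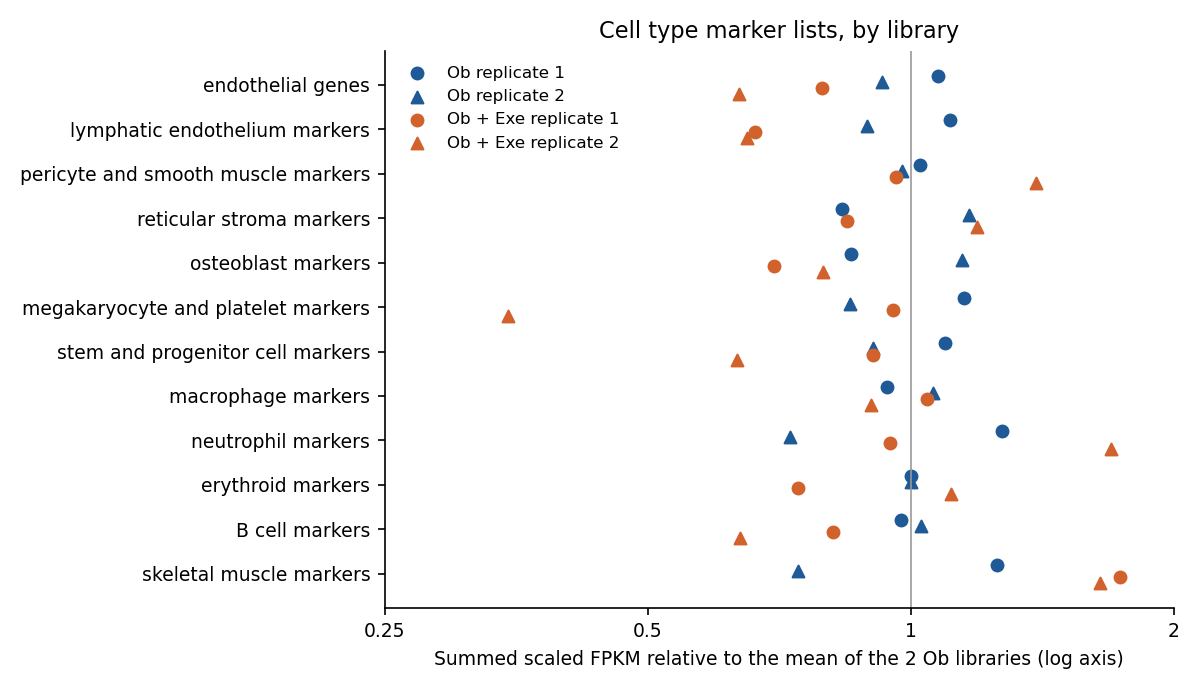
Summed scaled FPKM of the 10 endothelial genes and of 11 marker lists in each library, divided by the mean of the 2 Ob libraries (log axis, line at 1). Both Ob + Exe points lie left of both Ob points for the endothelial, lymphatic, osteoblast and B cell lists, and the lowest point of all is the megakaryocyte and platelet list in Ob + Exe replicate 2.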

How the data were processed

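Poly(A) RNA from tibial marrow was sequenced in 150-base pairs. Per the study's methods and the submitters' processing notes, the authors trimmed reads with fastp, removed ribosomal reads, aligned the rest to GRCm38 with HISAT2 and SAMtools, estimated transcripts with StringTie on GENCODE vM25 and tested genes with DESeq2; tool versions and strand use in counting were not given in the sources used here. The deposited files hold FPKM and coverage (a per-base signal) for 142604 transcripts in each library. They hold no counts, so a count test could not be the main one.

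FPKM was summed by gene and scaled by the median ratio over 12235 genes above 0 in every library and averaging 1 FPKM or more. Reads' worth of coverage is coverage times transcript length over 150 bases. Genes with a mean of at least 0.1 FPKM were compared on log2(FPKM + 0.1) with limma 3.58.1 in R 4.3.3 (moderated test, intensity trend, two-sided, no covariates), called where p before adjustment was under 0.05 and log2 change exceeded 1 unit (as the study did), with Benjamini-Hochberg adjustment over all genes tested. The script was tested on simulated data. Tables and plots were made in Python 3.11.15 with pandas 2.3.3 and matplotlib 3.10.9.

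The 10 genes and all lists were chosen with earlier results of these data known, so counts over them are descriptions. Beyond the 10, genes were named if called or among the 3 most abundant of a list, though not every such gene of the cell type lists was named. The exceptions Nrp2, Pgf, Svep1, Id3, Sema3g, Efnb2 and Notch4 were chosen after their values were seen. The exceptions Stab1, Sele, Mrc1, Prox1, Gdf2, Bmp10, Fpgs and Ly6c2 were chosen after their values were seen or as background. The numbers of the replicates mark no shared animal or batch, and the differences between replicates 1 and 2 correlated at -0.106 between the groups over all genes tested, so the numbers do not pair the mice. Promoter windows came from RefSeq on GRCm38.p6.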

Additional observations from a re-analysis of the deposited data

How the results depend on the processing

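The Plvap call was kept in 9 of 14 alternatives, those of the partners Cav1 in 4 of 13 and Ly6c1 in 11 of 14. Plvap was lost with a pseudocount of 1 (log2 fold change -0.94, no gene of the 10 called) and with no filter on low values (again 0 called), held without scaling, after quantile scaling and with the replicate block, and was joined by Flt4 (-2.01, 2 called) with limma voom on reads' worth of coverage. Leaving out 1 library, which leaves 1 mouse in that group with the spread taken from the other, gave 0 to 1 called. The Plvap Benjamini-Hochberg adjusted p ran from 0.374 to 1 over all alternatives. Over all genes, the 690 calls became 224 with a pseudocount of 1, 267 at a mean FPKM of at least 1, 450 with voom and 1061 without the intensity trend, and 745 to 1922 with 1 library left out. Calls in the 7 partner lists numbered 2, and became 1 without scaling, with a pseudocount of 1, at a mean FPKM of at least 1, with no filter or with either replicate block (Cav1 lost in the blocks, Ly6c1 kept), 4 without the trend and 0 to 6 with 1 library left out.

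The difference in the summed scaled FPKM, -8.74, was -3.20 without Pecam1 and Eng and -11.1 to -6.35 with 1 library left out. With 1 library left out, the log2 fold change of Stab2 ran from -0.63 to 0.47, with 0.04 without Ob replicate 2, and that of Tie1 from -0.98 to 0.57, both lowest without Ob + Exe replicate 1 and highest without Ob + Exe replicate 2. The other 8 genes stayed negative in every alternative that tested them, though leaving out 1 library moved Cdh5 between -0.78 and -0.24, Kdr between -0.85 and -0.19, Eng between -0.59 and -0.14, Tek between -0.51 and -0.25 and Flt4 between -1.91 (without Ob + Exe replicate 1, where it was called) and -0.70. With quantile scaling 7 of the 10 lay lower in both Ob + Exe libraries (17.2% of all genes), Tek no longer among them, against 8 without scaling (22.8%).

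The replicate block gave 776 calls over all genes, 28 at an adjusted p under 0.05, and none of these among the 10. The pairing correlation of -0.106 prompted a crossed block, added after the data were seen. It gave 782 calls over all genes, 6 genes at an adjusted p under 0.05 in limma, and 1 call in the partner lists. Depth limits Flt4 most, at 22 reads' worth of coverage in 1 library. Calls in the cell type lists also depended on the processing with all 4 libraries kept. Col1a1 was lost after quantile scaling, with a pseudocount of 1, with no filter and with the replicate block. Bglap2 was lost with a pseudocount of 0.01, at a mean FPKM of at least 1, with no filter, with voom and without the trend. Treml1 was lost with a pseudocount of 1, with no filter and without the trend. Gp1ba, Cd79a and Acta1 held in all of these settings.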
